A study of Mus musculus with 4 samples.

Results

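The lysosome and autophagy genes examined here are 42 genes chosen by symbol: cathepsins and other acid proteases, glycosidases and lipid hydrolases, lysosomal membrane proteins, the transcription factors Tfeb and Tfe3, and autophagy machinery. They are 42 of the 55401 Ensembl gene identifiers in the deposited count table. RNA-seq was run on tissue taken beside pancreatic tumours of mice, with 2 libraries from CRFR1-KO animals and 2 from wild-type (WT) animals. The labels name Panc02, a mouse pancreatic ductal adenocarcinoma line, for all 4 libraries, so both genotypes are tumour-bearing. Crhr1 encodes CRFR1, which binds the stress peptide corticotropin-releasing factor, and the series title speaks of CRFR1 in mast cells. Some labels write CRFR1 CKO in place of CRFR1-KO. The promoter or Cre line behind the deletion and the age, sex and strain of the mice are not in the labels. Nothing in them says that the 2 libraries of a genotype are from different mice, so the spread behind every p-value here could be partly technical.

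The lysosome is the acidic compartment in which proteins, lipids and glycans are broken down. A proton pump, the V-ATPase, acidifies it, and autophagy delivers cytoplasm to it in membrane vesicles that carry lipidated Atg8-family proteins. In pancreatic acinar cells the system matters because cathepsin B can activate trypsinogen and cathepsin L can degrade it, and because loss of Atg5, Atg7 or Lamp2 in mice damages the exocrine pancreas. Many lysosomal genes carry a short promoter element, the CLEAR element, through which TFEB and TFE3 activate them together.

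Some of the members' promoters held letters of the CLEAR element. RefSeq promoter windows (GRCm38.p6, 250 bases before to 50 bases after a start site) were matched by symbol for 36 of the 42 genes. Ctsb, Ctsh, Npc1, Atg16l1, Becn1 and Map1lc3a were not matched. The full palindrome GTCACGTGAC was in 0 of the 36 genes, against 0.37% of 27025 genes with a window. The 8-letter form GTCACGTG, read on either strand (so also as CACGTGAC), was in 9 of 36 genes (25%), against 2.55% of all genes. Its core CACGTG, which every GTCACGTG contains, was in 13 of 36 (36.1%), against 8.09%. Per window of equal length, GTCACGTG was in 20.5% of the members' 44 windows and 2.25% of all 32851. A match describes letters and does not show binding. The stretches below, 5′ to 3′ on the gene's strand, hold the GTCACGTG or CACGTGAC of 8 of the 9 genes, in capitals, with 12 bases on either side. They are shown because genes with the same letters were measured on both sides of 0 in the knockout comparison. Some of these values were smaller than their standard error (SE). Examples are log2 fold changes of 0.06 (SE 0.24) for Atg7 and -0.11 (SE 0.18) for Ctsd.
Lgmn: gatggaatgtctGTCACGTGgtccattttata
Gla: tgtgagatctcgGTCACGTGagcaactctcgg
Ctsa: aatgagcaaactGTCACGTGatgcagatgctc
Ctsd: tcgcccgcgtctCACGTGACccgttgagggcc
Atg7: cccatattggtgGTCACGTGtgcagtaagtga
Glb1: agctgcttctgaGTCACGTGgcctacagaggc
Atp6v0d1: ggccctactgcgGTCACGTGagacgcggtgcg
Mcoln1: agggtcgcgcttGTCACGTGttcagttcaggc
The first capital lies at -51 in Lgmn, -196 in Gla, -14 in Ctsa, -98 in Ctsd, -134 in Atg7, -50 in Glb1, -5 in Atp6v0d1 and -73 in Mcoln1, counted from the start site. Ctsa, Ctsd and Mcoln1 each hold a second copy of the 8-letter form that is not shown, at 6, -245 and -45 in that order. In Lgmn and Ctsa the letters are in 1 of the gene's 2 windows. The 9th gene, Lamp1, has 4 copies of CACGTG, more than any other member's window, and its window (chr8:13158911-13159210, plus strand) is given whole with those copies, and the AC that extends 1 of them to the 8-letter form, in capitals.
Lamp1: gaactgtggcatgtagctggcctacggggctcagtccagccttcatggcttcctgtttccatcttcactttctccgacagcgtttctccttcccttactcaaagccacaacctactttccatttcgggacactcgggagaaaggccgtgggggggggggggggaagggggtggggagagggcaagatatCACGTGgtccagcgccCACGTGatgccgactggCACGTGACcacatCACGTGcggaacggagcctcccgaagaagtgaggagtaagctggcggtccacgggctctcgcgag

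The tissue was dominated by exocrine pancreas. A list of 24 acinar genes held 55.0% and 56.3% of all counts in the CRFR1-KO libraries, against 53.2% and 53.1% in the WT libraries, and libraries held between 63495457 and 71203640 counts. The 42 members together took between 0.101% and 0.146% of a library. Crhr1 had 0 counts in all 4 libraries and so gives no check of the genotypes. Levels below are in CPM, the count relative to the library's size after edgeR's scaling by the trimmed mean of M values. All 42 members passed the filter on low counts, with between 65 and 10535 counts in each library. WT 1 stood apart from the other 3 libraries, with the largest scaling factor (1.18), the most fibroblast RNA and the least islet RNA. The summed level of 12 fibroblast genes was 168 and 189 CPM in CRFR1-KO, against 498 CPM in WT 1 and 242 CPM in WT 2, and that of 7 islet genes was 235 and 292 CPM in CRFR1-KO, against 39.9 CPM in WT 1 and 269.6 CPM in WT 2.

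Set per kilobase of exon, the members' levels spanned from 0.395 CPM per kilobase for Tfeb to 50.6 CPM per kilobase for Ctsd, as means over the 4 libraries. The length used was the union of all annotated exons of a gene, such as 2351 bases for Ctsd and 6489 for Ctsl. It can exceed the length of the transcripts present, so the order of genes below depends partly on the annotation. Ctsd, the aspartic protease cathepsin D, averaged 48.6 CPM per kilobase in CRFR1-KO and 52.5 in WT. Gabarap, an Atg8-family protein, followed with 45.0 CPM per kilobase in CRFR1-KO and 45.5 in WT, and Lamp1, the major glycoprotein of the lysosomal membrane, with 45.1 in CRFR1-KO and 42.6 in WT. Gabarap's libraries overlapped those of both other genes, so its place among them is not resolved, whereas all 4 Ctsd libraries lay above all 4 Lamp1 libraries. Psap, the precursor of the saposins that assist sphingolipid breakdown, came next at 21.2 CPM per kilobase in CRFR1-KO and 28.5 in WT, with the autophagy receptor gene Sqstm1 at 21.2 in CRFR1-KO and 19.6 in WT, and the libraries of these 2 genes overlapped. Cathepsins L and B, encoded by Ctsl and Ctsb, lay together at 13.7 and 14.3 CPM per kilobase in CRFR1-KO, and at 19.6 and 18.2 in WT. The lowest 5, between 0.395 and 0.606 CPM per kilobase, were both transcription factor genes, the Niemann-Pick sterol transporter gene Npc1, the acid lipase gene Lipa and the alpha-galactosidase gene Gla.

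**Figure D1:**
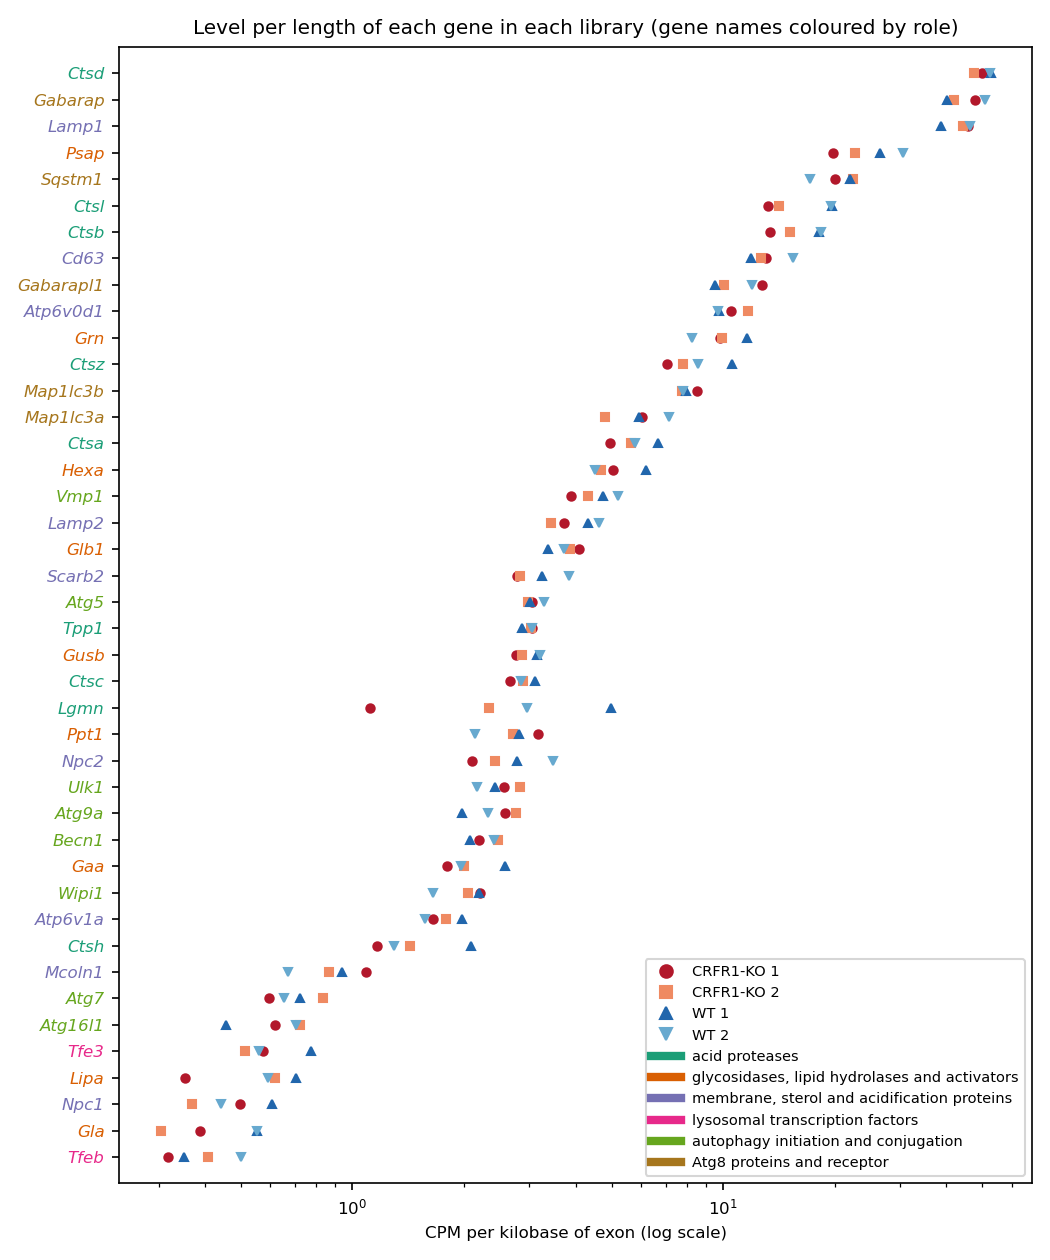
Level of each of the 42 genes in CPM per kilobase of exon (log axis), with 1 symbol per library and gene names coloured by role. Levels run from 0.395 for Tfeb to 50.6 for Ctsd, and for most genes the 4 libraries lie close together beside that range.

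By the series' design text, the comparison of genotypes looks for pathways downstream of CRFR1. In edgeR's quasi-likelihood test across 15131 genes, 4 genes (0.0264%) passed a Benjamini-Hochberg adjusted p of 0.05, of which 2 were lower (0.0132%) and 2 higher (0.0132%) in CRFR1-KO, and 0 of the 42 members were among them. Members with an unadjusted edgeR p under 0.05 were Ctsl, Lgmn and Npc2, or 3 of 42 (7.14%), all lower in CRFR1-KO. Over all genes 4.86% passed that mark, made up of 3.15% lower and 1.71% higher. DESeq2 called 0 members, against 0.373% of the 16085 genes it adjusted (0.292% lower), and limma-voom 0 members, against 0% of the 15131 genes. At an unadjusted p under 0.05 limma-voom had 4 members, beside 4.57% of the 15131. DESeq2 also had 4, beside 3.23% of 22540 genes. That larger set includes genes below the filter on low counts, which all members passed, so its share is not on the same footing. Both CRFR1-KO libraries lay below both WT libraries for 13 members (31.0%), against 16.9% of all genes, and above both for 4, against 16.6%. The log2 fold change (CRFR1-KO over WT) was below 0 for 27 of 42 members, with a median of -0.11 (-0.056 without WT 1), and above 0 for 15. Over all genes it was below 0 for 50.8% and above 0 for 49.2%, with a median of -0.01. Within genotypes, CRFR1-KO 1 lay above CRFR1-KO 2 for 18 of 42 members (49.8% of all genes) and WT 1 above WT 2 for 22 (51.5%). On library totals without scaling, where the median of all genes moved to -0.13, 35 of 42 members were below 0, and 26 of 42 were below that median. SEs ran from 0.16 to 0.39 on the log2 scale. No member passed the test, and what follows describes values. That count of 3 became 4 when WT 1 was left out, where 8.69% of all genes passed the same mark, and 5 when WT 2 was left out, where 7.34% did. It became 0 when CRFR1-KO 1 was left out, beside 3.15% of all genes, and 2 when CRFR1-KO 2 was, beside 3.32%. With the replicate number as a block it was 2, beside 3.83% of all genes.

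**Figure D2:**
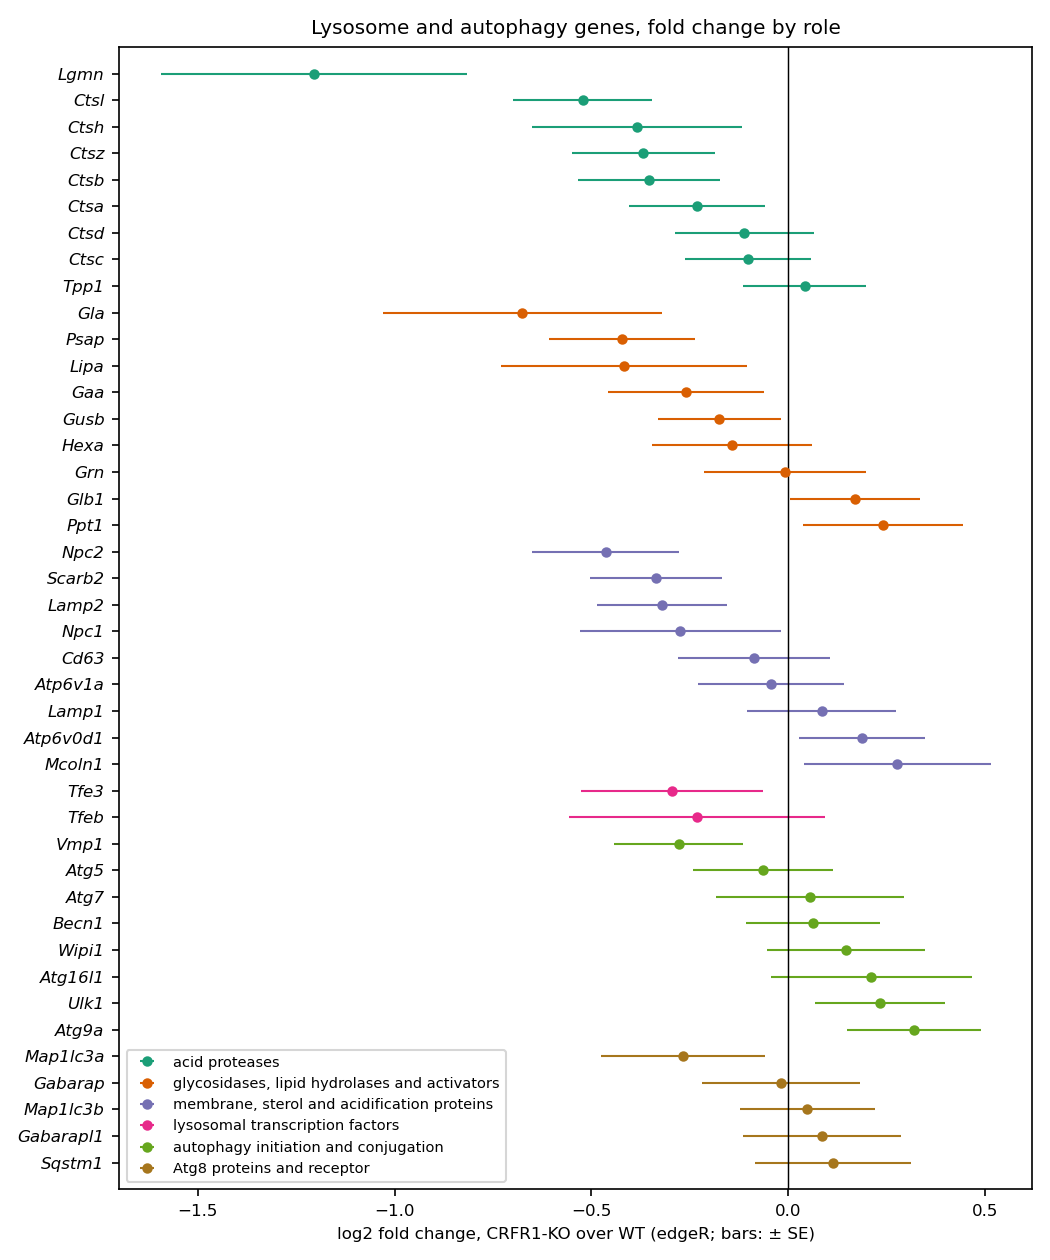
Log2 fold change of each gene, CRFR1-KO over WT, from edgeR with bars of ± 1 SE, grouped and coloured by role. Acid proteases lie mostly left of 0 (8 of 9) and the autophagy initiation and conjugation genes mostly right of it (6 of 8), and none passed the adjusted threshold.

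Acid proteases were measured lower in CRFR1-KO for the most part, with 8 of 9 log2 fold changes below 0 (50.8% of all genes) and a median of -0.35. Both CRFR1-KO libraries lay below both WT libraries for 6 of 9, against 16.9% of all genes. The proteases' summed level was 357 and 377 CPM in the CRFR1-KO libraries, against 461 and 446 CPM in the WT libraries. Without WT 1 the median was -0.125, with 7 of 9 below 0, and without CRFR1-KO 1 it was -0.24, with 8 of 9.

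Ctsl encodes cathepsin L, a cysteine endopeptidase (ENSMUSG00000021477; chromosome 13, 64359337 to 64370890, GRCm38 in GENCODE M21). It stood at 85.6 and 91.6 CPM in CRFR1-KO, against 127.4 and 127.1 CPM in WT. The WT libraries were almost equal and both lay above the CRFR1-KO pair. Ctsl averaged 88.6 ± 4.2 CPM in CRFR1-KO and 127.3 ± 0.2 CPM in WT (SD, n = 2 each; log2 fold change -0.52 ± 0.18 SE, adjusted p = 0.968 by edgeR). Its log2 fold change lay between -0.56 and -0.47 when any 1 library was left out. Lgmn encodes legumain, an asparaginyl endopeptidase that trims cathepsins (ENSMUSG00000021190; chromosome 12, 102394084 to 102439813). It stood at 2.59 and 5.42 CPM in CRFR1-KO, against 11.6 and 6.89 CPM in WT. The genotypes did not overlap, but the gap between CRFR1-KO 2 and WT 2 was smaller than the difference within either genotype. Lgmn averaged 4.01 ± 2.0 CPM in CRFR1-KO and 9.24 ± 3.3 CPM in WT (log2 fold change -1.21 ± 0.39 SE, adjusted p = 0.941 by edgeR), the largest fold of the 42. Its log2 fold change became -0.78 without WT 1, -0.77 without CRFR1-KO 1, -1.53 when WT 2 was left out and -1.82 when CRFR1-KO 2 was.

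The other proteases differed less. Ctsb, encoding cathepsin B, stood at 81.1 and 91.6 CPM in CRFR1-KO, against 109.8 and 111 CPM in WT, with no overlap. Ctsz, encoding the carboxypeptidase cathepsin Z, had 10.2 and 11.2 CPM in CRFR1-KO, against 15.2 and 12.4 CPM in WT. Ctsa, the protective protein that stabilises lysosomal galactosidase and sialidase, had 23.4 and 26.6 CPM in CRFR1-KO, against 31.4 and 27.3 CPM in WT. In both genes the genotypes were separated by a gap smaller than the difference between the WT libraries. Ctsd stood at 117 and 111 CPM in CRFR1-KO, against 124 and 123 CPM in WT. Ctsh (an aminopeptidase) had 5.25 and 6.45 CPM in CRFR1-KO, against 9.40 and 5.84 CPM in WT. Ctsc, which activates granule serine proteases in immune cells, had 15.5 and 16.8 CPM in CRFR1-KO, against 18.0 and 16.6 CPM in WT. Both genes overlapped between genotypes. Tpp1, the tripeptidyl peptidase lost in a childhood neuronal storage disease, was the protease above 0, at 15.8 and 15.7 CPM in CRFR1-KO, against 14.8 and 15.7 CPM in WT.

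**Figure D3:**
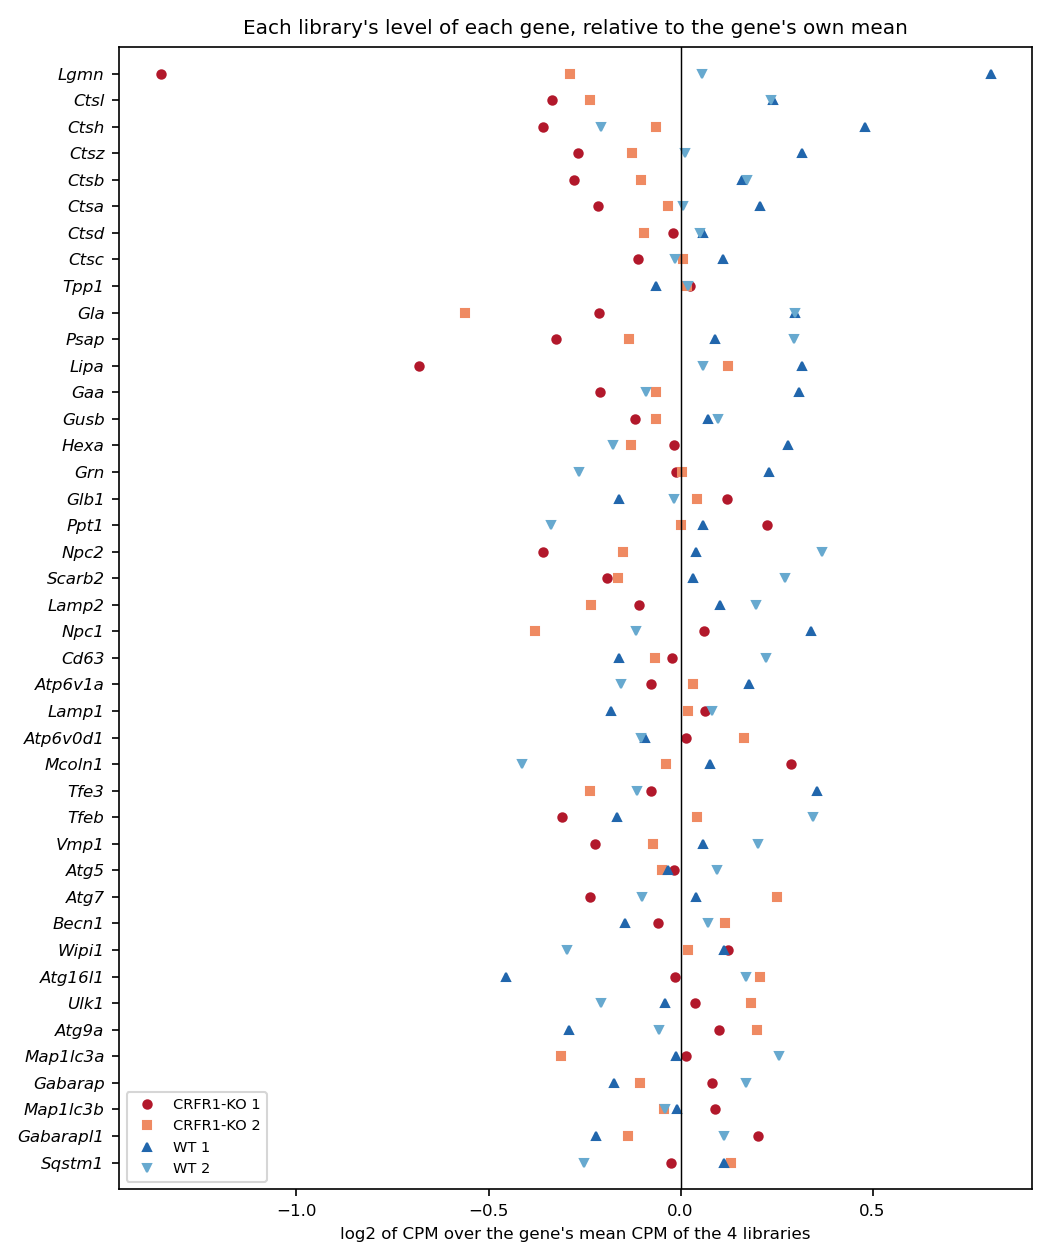
Log2 of each library's CPM over the gene's mean CPM of the 4 libraries, 1 symbol per library, with genes in the order of the fold change plot. Lgmn has the widest spread, Ctsl and Ctsb show 2 WT libraries on top of each other, and in most autophagy genes the symbols of the genotypes are mixed.

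Macrophages are rich in lysosomal proteases, and their markers were also measured lower. Of 16 macrophage markers 15 had a log2 fold change below 0, with a median of -0.85. Both CRFR1-KO libraries lay below both WT libraries for 10 of the 16, against 16.9% of all genes. With WT 1 left out, 13 of 16 were below 0 and the median was -0.48. Their summed level was 54.2 and 83.4 CPM in CRFR1-KO, against 146 and 108 CPM in WT, and 0 of the 16 were at 0 in all libraries. The sum was lowest in CRFR1-KO 1 and highest in WT 1, as Lgmn was. The fibroblast sum given above ordered the libraries in the same way. Ctsl and Ctsb were nearly equal in the WT libraries, whose macrophage sums were 146 and 108 CPM. The defining macrophage gene Adgre1 stood at 1.97 and 2.67 CPM in CRFR1-KO, against 5.64 and 2.44 CPM in WT, with overlap, and Csf1r, the growth factor receptor of macrophages, at 6.03 and 9.30 CPM in CRFR1-KO, against 17.1 and 10.3 CPM in WT. In bulk tissue, fewer cells of a type and less RNA per cell cannot be told apart, and the part of macrophage content in the members' values was not tested. The fibroblast sum given above was also lower in CRFR1-KO, with 11 of 12 genes below 0 and a median of -0.71. Both CRFR1-KO libraries lay below both WT libraries for 10 of these 12. Without WT 1 the fibroblast median was -0.47, with 10 of 12 below 0. The lymphocyte list summed to 1.39 and 4.12 CPM in CRFR1-KO, against 2.83 and 3.47 CPM in WT, with 2 of its 8 genes at 0 throughout. Of 7 mast cell genes 5 were at 0 in every library, and the list summed to 14.5 and 10.8 CPM in CRFR1-KO, against 11.8 and 13.8 CPM in WT. The duct list summed to 169 and 159 CPM in CRFR1-KO, against 273 and 189 CPM in WT, the endothelial list to 50.4 and 55.7 CPM in CRFR1-KO, against 53.2 and 45.6 CPM in WT, and the adipocyte list to 8.0 and 9.35 CPM in CRFR1-KO, against 9.23 and 8.27 CPM in WT. The parts of these cell types were not tested either.

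**Figure D4:**
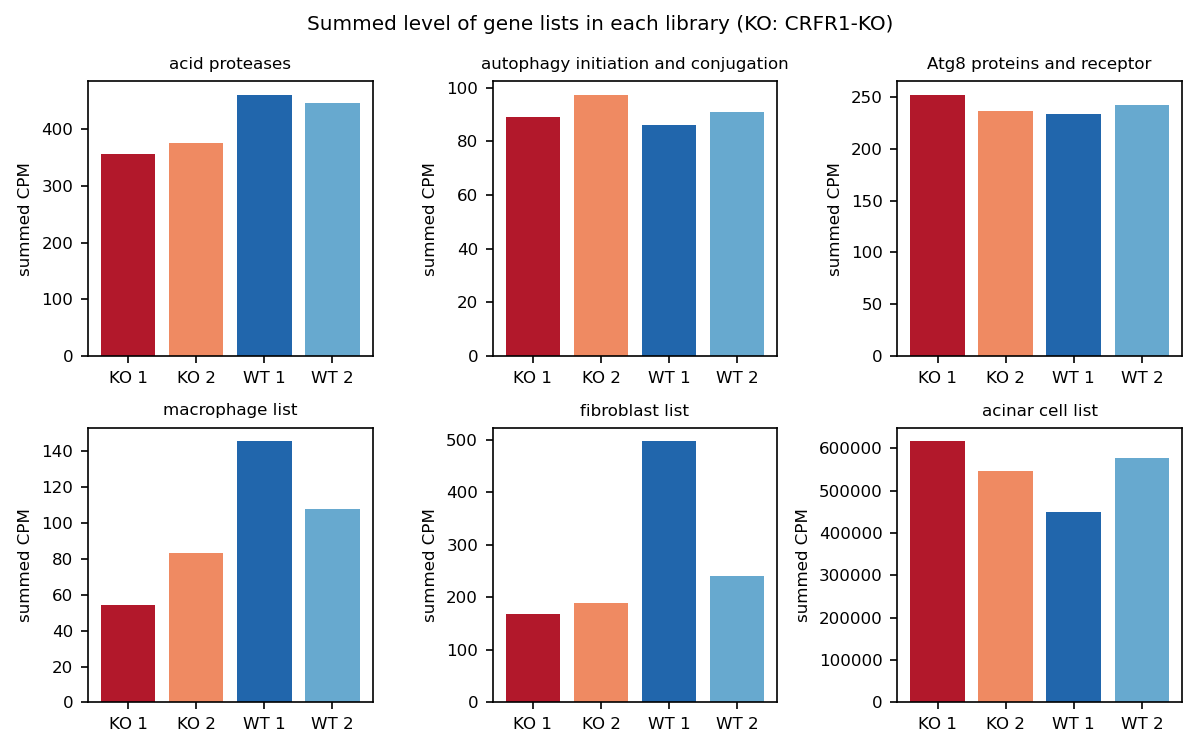
Summed CPM of 3 role groups (top) and of 3 cell type marker lists (bottom) in each library, CRFR1-KO in red and orange and WT in blues, with axes from 0. The protease sum is 357 and 377 CPM in CRFR1-KO, against 461 and 446 CPM in WT, and the autophagy sums are close to level. The macrophage and fibroblast sums are highest in WT 1, and the acinar sum in CPM is lowest there. As a share of all counts, without scaling, the acinar list held 53.2% in WT 1 and 53.1% in WT 2.

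Glycosidases, lipid hydrolases and activators gave a mixed picture, with 7 of 9 below 0 and a median log2 fold change of -0.17. Without WT 1 the median was -0.045, with 5 of 9 below 0, and without WT 2 it was -0.31. Psap (ENSMUSG00000004207) stood at 54.4 and 62.1 CPM in CRFR1-KO, against 72.5 and 83.6 CPM in WT. Both CRFR1-KO libraries were below both WT libraries. It averaged 58.3 ± 5.4 CPM in CRFR1-KO and 78.1 ± 7.8 CPM in WT (SD, n = 2 each; log2 fold change -0.42 ± 0.18 SE, adjusted p = 1.0 by edgeR). Gla, the alpha-galactosidase deficient in Fabry disease (ENSMUSG00000031266), stood at 1.26 and 0.993 CPM in CRFR1-KO, against 1.80 and 1.80 CPM in WT. The genotypes did not overlap, at counts of 79 and 65 in CRFR1-KO and 149 and 118 in WT. Its log2 fold change was -0.68 (SE 0.35, edgeR adjusted p = 1.0).

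Lipa, the lysosomal acid lipase gene, had 2.40 and 4.19 CPM in CRFR1-KO, against 4.79 and 4.0 CPM in WT, so CRFR1-KO 1 alone was low. Gaa, the acid alpha-glucosidase that degrades lysosomal glycogen, had 8.62 and 9.55 CPM in CRFR1-KO, against 12.4 and 9.38 CPM in WT. Hexa, a beta-hexosaminidase subunit, had 10.1 and 9.33 CPM in CRFR1-KO, against 12.4 and 9.03 CPM in WT. In Gaa and Hexa the single high library was WT 1. Grn, the progranulin gene, had 34.2 and 34.5 CPM in CRFR1-KO, against 40.4 and 28.7 CPM in WT, so the CRFR1-KO libraries lay between the WT libraries. Gusb, the beta-glucuronidase gene, had 12.6 and 13.1 CPM in CRFR1-KO, against 14.3 and 14.6 CPM in WT, without overlap. Glb1, the beta-galactosidase gene, was separated the other way, with 12.3 and 11.7 CPM in CRFR1-KO, against 10.1 and 11.2 CPM in WT. Ppt1, a palmitoyl thioesterase, had 11.6 and 9.96 CPM in CRFR1-KO, against 10.4 and 7.88 CPM in WT, with overlap.

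Membrane, sterol and acidification genes differed among themselves. The group had 6 of 9 below 0 and a median of -0.09 on the log2 scale, which was -0.040 without WT 1 and -0.195 without WT 2. Npc2, a luminal protein that hands cholesterol to NPC1 (ENSMUSG00000021242; chromosome 12, 84754562 to 84773152), stood at 11.4 and 13.2 CPM in CRFR1-KO, against 15.1 and 18.9 CPM in WT. The genotypes did not overlap, although the WT libraries lay further apart than the CRFR1-KO pair. Npc2 averaged 12.3 ± 1.3 CPM in CRFR1-KO and 17.0 ± 2.7 CPM in WT (log2 fold change -0.46 ± 0.19 SE, adjusted p = 1.0 by edgeR), and was -0.29 without WT 2. Scarb2, which carries glucocerebrosidase to the lysosome, stood at 17.4 and 17.8 CPM in CRFR1-KO, against 20.4 and 24.1 CPM in WT. It was separated by genotype, with a log2 fold change of -0.34 (SE 0.17, edgeR adjusted p = 1.0) and of -0.21 without WT 2. Lamp2, needed for the fusion of autophagosomes with lysosomes, stood at 35.6 and 32.7 CPM in CRFR1-KO, against 41.3 and 44.1 CPM in WT, also without overlap.

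The remaining membrane genes did not share that pattern. Lamp1 stood at 123 and 119 CPM in CRFR1-KO, against 103 and 124 CPM in WT, and Cd63, a tetraspanin of late endosomes, at 48.1 and 46.7 CPM in CRFR1-KO, against 43.7 and 57.0 CPM in WT. In both, the CRFR1-KO libraries lay between the WT libraries. Npc1 had 5.65 and 4.17 CPM in CRFR1-KO, against 6.86 and 5.00 CPM in WT. Of the V-ATPase subunits, Atp6v0d1 had 18.8 and 20.9 CPM in CRFR1-KO, against 17.5 and 17.4 CPM in WT, with no overlap. Atp6v1a, the catalytic subunit, had 9.9998 and 10.8 CPM in CRFR1-KO, against 11.9 and 9.49 CPM in WT. Mcoln1, a lysosomal calcium channel, had 8.21 and 6.55 CPM in CRFR1-KO, against 7.10 and 5.06 CPM in WT, with overlap.

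The transcription factors that act on CLEAR elements were low in both genotypes. Tfeb stood at 1.81 and 2.31 CPM in CRFR1-KO, against 2.0 and 2.84 CPM in WT (log2 fold change -0.23 ± 0.33 SE, adjusted p = 1.0 by edgeR), and turned to 0.048 without WT 2, with -0.46 if WT 1 is left out, -0.41 if CRFR1-KO 2 is and -0.065 if CRFR1-KO 1 is. Tfe3 stood at 5.31 and 4.77 CPM in CRFR1-KO, against 7.17 and 5.18 CPM in WT (log2 fold change -0.30 ± 0.23 SE, adjusted p = 1.0 by edgeR), with -0.04 without WT 1 and -0.51 without WT 2. The libraries of each gene were mixed by genotype for Tfeb, and for Tfe3 WT 1 alone was high. Both factors are regulated by their location in the cell, which RNA levels do not measure. Of the 9 genes with GTCACGTG shown above, 4 had a log2 fold change below 0 and 5 above it. By role, 3 of 3 acid proteases with the letters were below 0. Of the membrane, sterol and acidification genes with them, 3 of 3 were above 0 (2 of 3 on library totals). Whether the letters bear on direction was not tested. On library totals, where the median of all genes was -0.13, 6 of the 9 were below 0 and 3 above. With scaling, the median of the 9 was 0.06, against -0.10 for the 27 members with a window but without these letters. The medians with and without the core CACGTG were -0.06 over 13 genes and -0.10 over 23.

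Autophagy initiation and conjugation genes had 6 of 8 log2 fold changes above 0 and a median of 0.11. With library totals 3 of 8 were above 0, at a median of -0.026. That setting moved the median of all genes to -0.13, and 6 of 8 were above it. The group's median became 0.045 when WT 1 was left out and 0.043 when CRFR1-KO 2 was, with 4 of 8 above 0 in each. It was 0.214 without CRFR1-KO 1. Their summed level was 89.1 and 97.4 CPM in CRFR1-KO, against 86.2 and 90.9 CPM in WT. Atg9a, a scramblase on the vesicles that seed autophagosomes (ENSMUSG00000033124), stood at 14.9 and 16.0 CPM in CRFR1-KO, against 11.4 and 13.4 CPM in WT. The genotypes did not overlap (log2 fold change 0.32 ± 0.17 SE, adjusted p = 1.0 by edgeR). Atg9a shares exon bases with Gm29253, which had 325 counts in WT 1 and between 0 and 6 in the others. Summed over the models that share exons, the log2 fold change was 0.15 (SE 0.16), and without WT 1 that of Atg9a was 0.21. Ulk1, the kinase that starts autophagy, had 16.6 and 18.4 CPM in CRFR1-KO, against 15.7 and 14.0 CPM in WT, without overlap.

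Vmp1, an endoplasmic reticulum scramblase needed to form autophagosomes, was measured lower in CRFR1-KO. It stood at 15.0 and 16.7 CPM in CRFR1-KO, against 18.3 and 20.2 CPM in WT, with no overlap (log2 fold change -0.28 ± 0.16 SE, adjusted p = 1.0 by edgeR). Becn1, part of the lipid kinase complex, had 15.5 and 17.5 CPM in CRFR1-KO, against 14.6 and 17.0 CPM in WT. Atg5 had 7.17 and 7.01 CPM in CRFR1-KO, against 7.09 and 7.75 CPM in WT. Atg7, the E1-like enzyme of Atg8 conjugation, had 4.14 and 5.80 CPM in CRFR1-KO, against 5.02 and 4.55 CPM in WT. For these 3 genes the genotypes overlapped. Atg16l1, the partner of the Atg5 conjugate, had 5.97 and 6.97 CPM in CRFR1-KO, against 4.40 and 6.78 CPM in WT. Wipi1, a phosphoinositide reader, had 9.73 and 9.06 CPM in CRFR1-KO, against 9.67 and 7.27 CPM in WT. Both overlapped, with WT 1 the low library for Atg16l1 and WT 2 for Wipi1.

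Atg8-family genes and the receptor gene Sqstm1 showed small differences between the genotypes, with log2 fold changes between -0.27 and 0.11. The group's summed level was 252 and 237 CPM in CRFR1-KO, against 234 and 243 CPM in WT, and its median was 0.05, turning to -0.086 on library totals, -0.07 if WT 1 is left out and -0.09 if CRFR1-KO 1 is, with 0.082 if CRFR1-KO 2 is. On library totals the median of all genes was -0.13, and the group's median lay 0.047 above it. Sqstm1 encodes p62, which links ubiquitinated cargo to the autophagosome and is itself degraded with it. It stood at 67.3 and 74.97 CPM in CRFR1-KO, against 74.0 and 57.5 CPM in WT (log2 fold change 0.11 ± 0.20 SE, adjusted p = 1.0 by edgeR), and turned to -0.03 on library totals and to -0.05 without WT 2, with 0.31 if WT 1 is left out, 0.19 if CRFR1-KO 1 is and 0.043 if CRFR1-KO 2 is. WT 2 was the low library, and WT 1 lay between the CRFR1-KO libraries. Map1lc3a had 7.12 and 5.68 CPM in CRFR1-KO, against 6.99 and 8.42 CPM in WT (log2 fold change -0.27 ± 0.21 SE, adjusted p = 1.0 by edgeR). The genotypes overlapped, and its log2 fold change was -0.10 without CRFR1-KO 2, -0.12 without WT 2 and -0.44 without CRFR1-KO 1.

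Map1lc3b, the LC3 gene with the larger count, had 64.0 and 58.4 CPM in CRFR1-KO, against 59.8 and 58.5 CPM in WT. The count of Map1lc3b was 8.99 and 10.3 times that of Map1lc3a in the CRFR1-KO libraries, and 8.55 and 6.95 times in the WT libraries. Per kilobase of exon, Map1lc3b and Map1lc3a stood at 8.14 and 5.42 CPM per kilobase in CRFR1-KO and 7.87 and 6.52 in WT. Those values rest on union exon lengths of 7517 bases for Map1lc3b and 1181 for Map1lc3a. How abundant their transcripts are relative to each other is therefore not settled. Gabarap had 88.4 and 77.5 CPM in CRFR1-KO, against 74.0 and 94.0 CPM in WT, and Gabarapl1 had 25.6 and 20.2 CPM in CRFR1-KO, against 19.1 and 24.1 CPM in WT. In both Gabarap genes CRFR1-KO 1 and WT 2 were the higher libraries of their genotype. Transcript levels of these genes do not measure autophagic flux.

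Other genes of the same pathways, taken from 6 lists, numbered 142 tested of 145, of which 0 passed the edgeR threshold. An unadjusted edgeR p under 0.05 was found for 7 (4.93%), near the 4.86% of all genes. The median log2 fold change of the 142 was 0.02. The lysosomal hydrolases outside the members held 5 of those 7. Of the 32 listed, 4 were lower at an unadjusted edgeR p under 0.05 and 1 higher, beside 3.15% and 1.71% of all genes. The list's median was -0.09 (-0.16 if WT 2 is left out, -0.17 if CRFR1-KO 1 is and -0.056 if WT 1 is). Ctss, the cathepsin S gene of antigen-presenting cells, stood at 4.05 and 4.22 CPM in CRFR1-KO, against 7.26 and 7.78 CPM in WT (log2 fold change -0.86 ± 0.19 SE, adjusted p = 0.682 by edgeR), and is also on the macrophage list. The libraries of each genotype lay close together and the genotypes apart. Pla2g15, Ctsk and Acp5, named after their values were seen, had log2 fold changes of -0.74, -1.10 and 1.25, the last from 84 and 129 counts in CRFR1-KO and 62 and 42 in WT.

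The 25 tested lysosomal membrane and trafficking genes had a median of 0.02, which was 0.10 without WT 1, 0.0065 without WT 2, -0.014 without CRFR1-KO 1 and -0.10 on library totals. Laptm5, a membrane protein of blood cells named after its values were seen, stood at 2.27 and 3.28 CPM in CRFR1-KO, against 6.39 and 5.39 CPM in WT (log2 fold change -1.08 ± 0.26 SE, adjusted p = 0.795 by edgeR). Vps41, a subunit of the HOPS tethering complex, stood at 19.4 and 19.3 CPM in CRFR1-KO, against 14.1 and 15.6 CPM in WT (log2 fold change 0.39 ± 0.16 SE, adjusted p = 1.0 by edgeR). The 16 tested V-ATPase subunits had a median of 0.05, the 22 nutrient-sensing genes (the mTORC1, Rag and Ragulator components) of -0.03 and the 15 selective receptors of 0.04, with 0 at an unadjusted edgeR p under 0.05 in each. That of the V-ATPase list turned to -0.014 without WT 1 and -0.067 on library totals, and was 0.147 without WT 2. That of the nutrient-sensing list turned to 0.019 without CRFR1-KO 2 and was -0.158 without CRFR1-KO 1, -0.078 without WT 1 and -0.0029 without WT 2. That of the selective receptors turned to -0.088 on library totals and ran from 0.012 without CRFR1-KO 1 to 0.097 without CRFR1-KO 2. With library totals the median of all genes was -0.13. The membrane and trafficking, V-ATPase and selective receptor medians lay 0.028, 0.066 and 0.045 above it, in that order. The 32 other autophagy genes had 26 above 0 and a median of 0.13, with both CRFR1-KO libraries above both WT libraries for 11, against 16.6% of all genes, and 0 at an unadjusted edgeR p under 0.05. On library totals 14 of these 32 were above 0, and 26 were above the median of all genes. With WT 2 left out, 19 of 32 were above 0, at a median of 0.065.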

How the data were processed

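RNA-seq counts came from 4 mouse libraries. Poly(A) RNA was selected on beads and libraries were of the dUTP type, per the labels' protocols. The deposited values are raw whole-number counts per Ensembl gene. The tools FastQC, DESeq2 and edgeR are named in the submitters' processing notes, with no role. Which aligner, counter, strand setting and genome build were used is not given in the sources used here. Columns were tied to samples by library name. GENCODE M21 (GRCm38) gave symbols for all but 260 of 55401 identifiers, exon lengths (the union of a gene's annotated exons) and overlaps. In every library more genes had a count of 4 (862 to 959) than of 3 (342 to 383) or 5 (216 to 244), so what a deposited count stands for in reads is not settled. Exon bases were shared with another model on the same strand by 5 members (Ctsd, Ctsl, Glb1, Atg9a, Vmp1) and with the opposite strand by 14, whose reads cannot be told apart if strand was not used.

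The test was run with edgeR 4.0.16 under R 4.3.3 (filterByExpr defaults, scaling by trimmed mean of M values, quasi-likelihood F test, two-sided, genotype as sole term) and adjusted by Benjamini-Hochberg over 15131 genes. The SE was derived from F. limma 3.58.1 and DESeq2 1.42.0 were alternatives. The edgeR step was tested on simulated data. With 2 libraries against 2, an exact two-sided permutation test of 1 value cannot go below 0.333, so none was used. Members, role groups and lists were chosen with earlier results of these data known. Fold changes are given for members at an unadjusted p under 0.05 and for the 2 per role group with the smallest p. Other pathway genes are named at an unadjusted p under 0.05 and a mean of at least 5 CPM, at most 3 per list, and a gene that this rule selects is not reported here. No pair of libraries was a duplicate (chi-square per degree of freedom at least 44.5).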

Additional observations from a re-analysis of the deposited data

How the results depend on the processing

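With each of 15 other settings, 0 of the 42 members passed the adjusted threshold. Over all genes the 4 edgeR calls became 60 with the DESeq2 Wald test, 0 with limma-voom, 7 with the replicate block, 0 with exon-sharing models summed, and between 0 and 69 without 1 library. The members' median log2 fold change was -0.238 on library totals, which also moved the median of all genes, and lay between -0.140 and -0.056 without 1 library. Members at an unadjusted p under 0.05 numbered between 0 and 5 without 1 library, while the share of all genes ran from 3.15% to 8.69%, and 2 with the replicate block, beside 3.83%. Of the 12 genes with printed fold changes, Sqstm1 turned to -0.031 on library totals and lay between -0.052 and 0.308 without 1 library, and Tfeb between -0.464 and 0.048. Of 180 values of these genes under other settings, 177 kept their direction. The genes were chosen by their p in these same libraries, and most settings refit all of the libraries. That count therefore says little about new samples. Leaving out a library leaves its genotype a lone library, assumed to vary like the others. Labels do not say that equal replicate numbers share an animal or batch, and the deviations of equally numbered libraries correlated at -0.075 across genes, so the block is given here as an alternative. Counting error is largest for the low members, with Gla the lowest at 65 counts, and the 2 libraries per genotype limit all of them.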
